A study of Drosophila melanogaster with 18 samples.

Results

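The GstE genes studied here are the cluster of epsilon-class glutathione transferase genes on chromosome arm 2R of Drosophila melanogaster, named GstE1 to GstE10. The members were the probe sets annotated to exactly 1 of these 10 genes, and a gene with several probe sets was represented by the one with the highest mean. A total of 9 of the 10 genes had such a probe set, and GstE8 had none. All 9 passed the filter on dim probe sets, among 8212 genes that passed it of 11983 with a probe set. The cluster was selected on measured values, since GstE1 and GstE5 differed strongly between the arrays labelled HP1a Pof double mutant and those of HP1a mutants. The difference between those groups is therefore given as a description of every member, without a test, as are the changes of GstE1 and GstE5 from wildtype in either group.

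Glutathione transferases join the thiol of glutathione to reactive, electrophilic molecules such as plant toxins, insecticides and the products of lipid peroxidation, which makes them more soluble and easier to export. The epsilon and delta classes are found in insects and relatives, and both grew by tandem duplication into clusters of adjacent, similar genes. Epsilon enzymes are best known for insecticide resistance, and in Anopheles mosquitoes GSTE2 breaks down DDT. Several detoxification genes of flies are induced by the transcription factor CncC, the counterpart of mammalian Nrf2, which Keap1 holds in check.

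In the RefSeq annotation of Release 6 the genes lie in the order GstE10, GstE1, GstE2, GstE3, GstE4, GstE5, GstE6, GstE7, GstE8 and GstE9. The pseudogenes CR43687 and CR43688 are the 2 other annotated genes inside the cluster. Its next neighbours are Idgf5, a chitinase-like growth factor gene, before GstE10 and imd, the adaptor gene of the immune deficiency pathway, after GstE9. The annotated spans of GstE10 and GstE1 overlap, as do those of GstE9 and imd, and whether probes of one gene also read a neighbour or a similar member was not tested.

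The arrays measured total RNA of whole larvae in the first instar, raised at 25 °C and taken about 48 hours after egg laying, with 200 larvae pooled in each biological replicate. Wildtype was measured on 6 arrays (replicates A to F) and each of 4 mutant genotypes on 3 (replicates A to C). HP1a mutants were HP1a04/HP1a05, with different alleles on the paired chromosomes of the gene for heterochromatin protein 1a. The double mutants carried PofD119 on each of these chromosomes (HP1a04 PofD119/HP1a05 PofD119), and Pof encodes a protein that binds chromosome 4. Setdb1 mutants were homozygous for Setdb110.1 and Su(var)3-9 mutants carried the alleles Su(var)3-9evo and Su(var)3-906, and both genes encode histone H3 lysine methyltransferases. The labels name neither the wildtype stock nor a genetic background shared by the groups, and leave unsaid if any of the proteins is missing.

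Array medians ran from 5.93 to 6.03 on the log2 scale, so about as many probe sets lie below 6 as above it, and the number of arrays limits the precision. The HP1a gene had a mean log2 signal of 10.20 ± 0.05 (SD, n = 6) in wildtype, 9.48 ± 0.07 (SD, n = 3) in HP1a mutants and 9.53 ± 0.08 (SD, n = 3) in the arrays labelled HP1a Pof. Pof went against its label: its log2 signal was 8.32 ± 0.29 (SD, n = 3) in the arrays labelled HP1a Pof, 7.05 ± 0.05 (SD, n = 3) in HP1a mutants and 7.49 ± 0.09 (SD, n = 6) in wildtype. Pof had 6.99 ± 0.09 (SD, n = 3) in Setdb1 mutants and 7.61 ± 0.64 (SD, n = 3) in Su(var)3-9 mutants. The highest Su(var)3-9 array, at 8.31, lay within the range of 8.05 to 8.62 of the arrays labelled HP1a Pof. No source used here places the Pof probe set inside or outside the deleted part of the gene. The arrays labelled HP1a Pof are named by their label throughout. The targeted genes Setdb1 and Su(var)3-9 were not analysed here. The 18S ribosomal RNA control probe set also stood apart, with group means of 12.30 in wildtype and 9.39 to 10.10 in the mutants. The mean 3′ minus 5′ log2 signal of 3 control transcripts, a sign of RNA quality, ran from 1.46 to 1.92 in wildtype, 1.41 to 1.92 in HP1a mutants and 1.43 to 1.54 in the arrays labelled HP1a Pof. It ran from 1.16 to 1.33 in Setdb1 mutants, below every wildtype array, and from 1.24 to 1.47 in Su(var)3-9 mutants. The part of these measures in the results was not tested.

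GstE1 and GstE5, an outer and a middle gene of the cluster, were the members whose values chose it. GstE1 (NCBI gene 37106) had log2 signals of 10.04, 10.31 and 10.18 on the HP1a arrays A, B and C. On the arrays labelled HP1a Pof it had 7.78, 7.45 and 8.01. The groups did not overlap, and the difference of -2.43 ± 0.12 (SE) corresponds to 5.39-fold less signal in the arrays labelled HP1a Pof. GstE5 (NCBI gene 37110) had 8.68, 9.06 and 8.98 in HP1a mutants. In the arrays labelled HP1a Pof it had 6.81, 6.22 and 6.31, and these groups did not overlap either. The difference was -2.46 ± 0.15 (SE), or 5.50-fold less signal. Among the 8212 tested genes, counted from the lowest, GstE5 held the place 3 and GstE1 the place 4 in this contrast. The signals of GstE5 in the arrays labelled HP1a Pof lie close to the array medians.

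GstE1 was brightest in wildtype, with a lowest, median and highest log2 signal of 10.86, 11.04 and 11.07 over 6 arrays. The Setdb1 arrays, at 10.88, 10.93 and 11.02, overlapped with wildtype. The Su(var)3-9 arrays had 9.92, 9.90 and 9.81, below every wildtype and HP1a array. In order of group means, wildtype and Setdb1 overlapped, and HP1a, Su(var)3-9 and the arrays labelled HP1a Pof followed as 3 separate steps.

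GstE5 had a wildtype lowest, median and highest signal of 10.76, 10.81 and 10.94. The Setdb1 arrays gave 10.79, 10.46 and 10.42, and 1 of them reached into the wildtype range. The Su(var)3-9 arrays gave 9.30, 9.63 and 9.51. The order was wildtype, Setdb1, Su(var)3-9, HP1a and the arrays labelled HP1a Pof, and after the first pair no neighbouring groups overlapped. HP1a and Su(var)3-9 mutants thus stood in opposite order for GstE5 and GstE1.

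**Figure D1:**
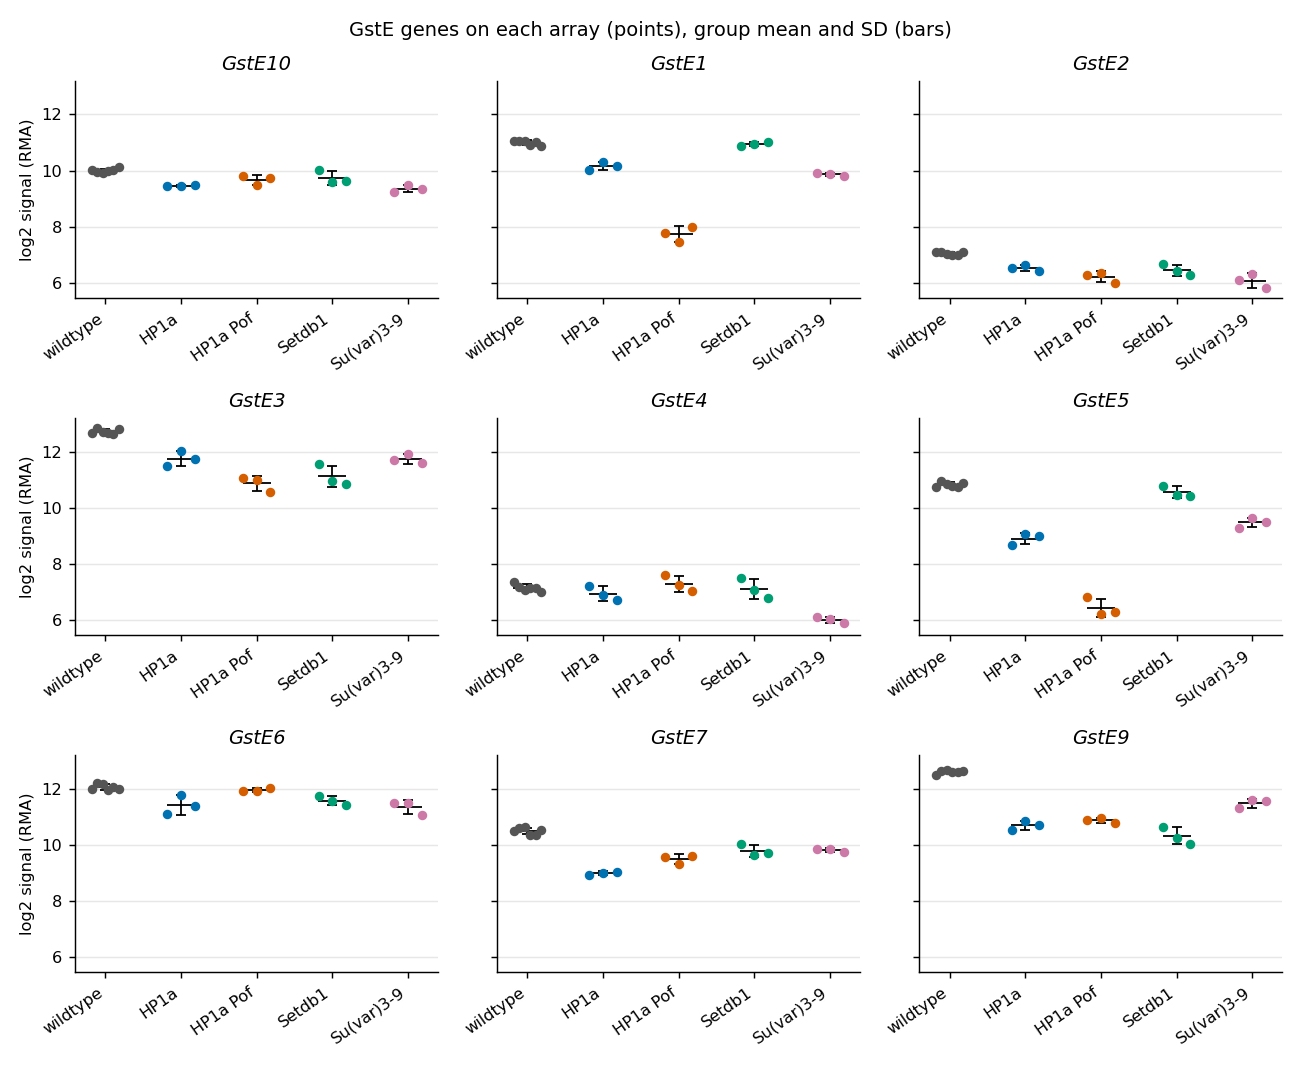
Log2 RMA signal of the 9 GstE genes with a probe set of their own, in chromosome order. Each point is an array, and the bars give the group mean and SD over 6 wildtype arrays or 3 arrays of each mutant group. GstE1 and GstE5 drop to group means of 7.75 and 6.45 in the arrays labelled HP1a Pof, while GstE4 is low only in Su(var)3-9 mutants, with a mean of 6.01. Heights of different genes come from different probe sets and are not comparable.

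The members next to GstE1 and GstE5 had far smaller differences. GstE3 was lower by 0.87 ± 0.17 (SE) in the arrays labelled HP1a Pof than in HP1a mutants (differences here and below are log2), and GstE2 had a difference of -0.31 ± 0.13 (SE), both without overlap of the arrays. GstE6, GstE7 and GstE10 had differences of 0.53 ± 0.15, 0.51 ± 0.11 and 0.22 ± 0.11 (SE), also without overlap but in the opposite direction. GstE4, at 0.35 ± 0.17 (SE), and GstE9, at 0.19 ± 0.13 (SE), had overlapping arrays. Over all genes, 6.49% had lower and 4.60% higher arrays without overlap in this contrast, and nothing is read from the members' counts because the contrast chose the cluster. Along the chromosome, GstE1 stood between GstE10 and GstE2, and GstE5 between GstE4 and GstE6. The step from GstE4 to GstE5 measured -2.81 ± 0.19 (SE) and the step from GstE5 to GstE6 measured 2.99 ± 0.17 (SE). Of all 8188 adjacent pairs of tested genes, 0.989% were called unequal in this contrast, and nothing is read from that beside the cluster's steps.

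**Figure D2:**
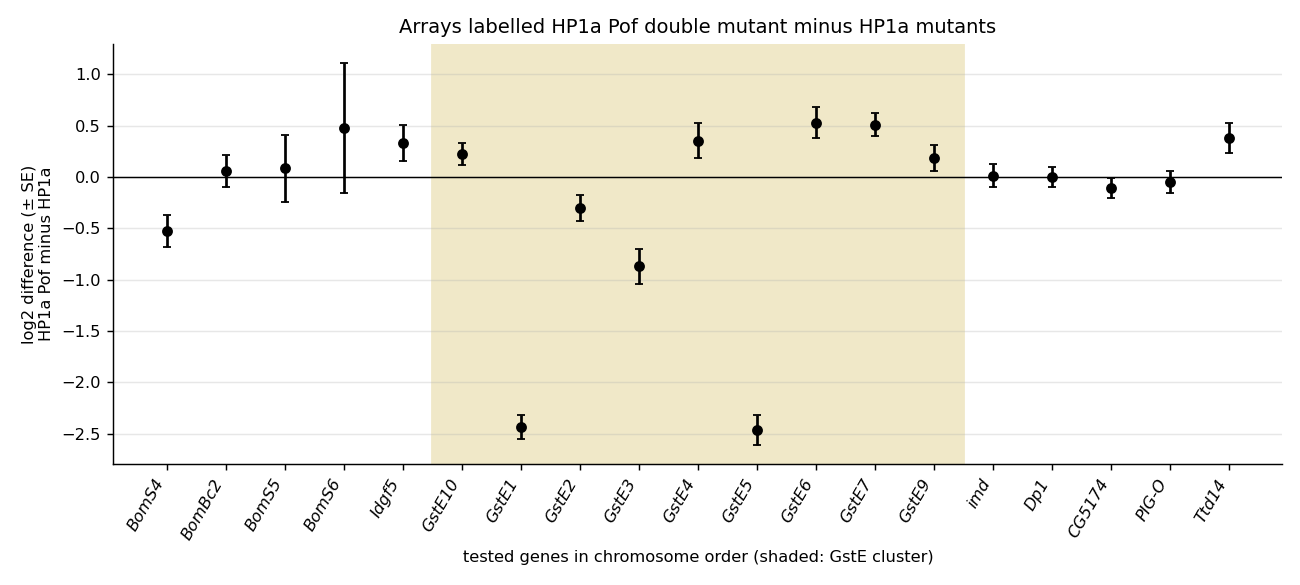
Log2 difference between the arrays labelled HP1a Pof double mutant and HP1a mutants (points, with the standard error as bars) for the tested genes of the cluster (shaded) and the 5 nearest tested genes on each side, in chromosome order. GstE1 at -2.43 and GstE5 at -2.46 stand alone, and the flanking genes lie between -0.53 and 0.48.

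None of the 10 flanking genes, 5 on each side, passed the test between the arrays labelled HP1a Pof and HP1a mutants (limma, adjusted p under 0.05), where 0.487% of all tested genes were called lower and 0.244% higher. The lowest adjusted p among them was 0.253, for BomS4, which encodes a short bomanin peptide of the Toll response. The genes called in this contrast were unevenly spread over the genome. On 2R they numbered 40 of 1686 tested genes (2.37%), against 20 of 6526 on the other arms and chromosomes (0.306%). Leaving out the GstE genes, the count on 2R was 36 of 1677 (2.15%). With 2R divided into 4 sections by the order of its tested genes, the sections held 2 of 422, 3 of 421, 18 of 422 and 17 of 421 called genes. The cluster, at places 1101 to 1109, lies in section 3, where 14 of the 413 other genes were called (3.39%). Pof, at place 1639, lies in section 4, and the HP1a gene lies on 2L. The PofD119 allele and any other difference between the second chromosomes of these larvae cannot be told apart in this design.

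**Figure D3:**
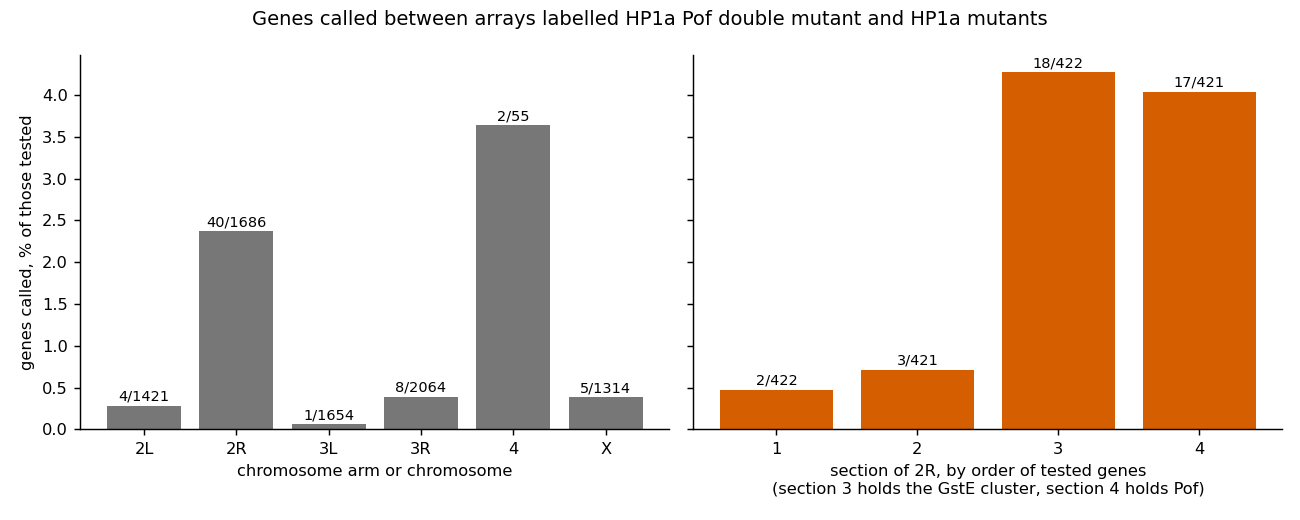
Share of tested genes called between the arrays labelled HP1a Pof double mutant and HP1a mutants (limma, adjusted p under 0.05), by chromosome arm (left) and by section of 2R in gene order (right). The numbers above the bars give called and tested genes. The share is 2.37% on 2R and 4.27% in section 3, which holds the cluster, while chromosome 4 has 2 called genes of 55.

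Compared with wildtype, the GstE genes were mostly lower in the larvae with mutant HP1a alleles. In HP1a mutants, 6 of the 7 members other than GstE1 and GstE5 were called lower and 0 higher, where 35.6% of all tested genes were called lower and 23.5% higher. The arrays of 6 of these 7 lay below wildtype without overlap, beside 33.7% of all genes. GstE9 fell from a wildtype lowest, median and highest of 12.50, 12.61 and 12.67 to 10.52, 10.85 and 10.71. This was a change of -1.91 ± 0.11 (SE, limma adjusted p = 1.14e-09). GstE7 fell from 10.36, 10.50 and 10.64 to 8.92, 9.01 and 9.05, a change of -1.51 ± 0.10 (SE, limma adjusted p = 3.48e-09). No HP1a array of either gene reached the wildtype range.

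GstE3 changed by -0.97 ± 0.15 (SE, limma adjusted p = 4.7e-05), from a wildtype median of 12.69 to 11.49, 12.03 and 11.73. GstE6, GstE10 and GstE2 fell by 0.64, 0.55 and 0.53 (limma adjusted p = 0.000501, 0.000119 and 0.000655), each without overlap with wildtype. GstE4 was not called, with 7.22, 6.91 and 6.71 in HP1a mutants against a wildtype range of 7.01 to 7.37 and an adjusted p of 0.224. Paired by replicate letter, GstE4 had a change of -0.27 (limma adjusted p = 0.0313). GstE1 and GstE5, given without a test, differed from wildtype by -0.82 and -1.92, or 1.76-fold and 3.78-fold less signal. The median over the other 7 members was -0.64, beside -0.07 over all tested genes.

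In the arrays labelled HP1a Pof, 5 of the 7 other members were called lower than wildtype and 0 higher, where the background was 35.8% lower and 25.0% higher. The arrays of these 5 lay below wildtype without overlap, beside 36.6% of all genes. GstE3 fell to 11.08, 10.98 and 10.57, a change of -1.84 ± 0.15 (SE, limma adjusted p = 4.5e-08). GstE9 fell to 10.88, 10.96 and 10.80, a change of -1.73 ± 0.11 (SE, limma adjusted p = 2.53e-09). These 2 genes stood well below every wildtype array. GstE7, GstE2 and GstE10 changed by -0.998, -0.836 and -0.330 (limma adjusted p = 2.25e-07, 7.96e-06 and 0.00671). The change of GstE10 was -0.29 and no longer passed when paired by letter (limma adjusted p = 0.0548) or with wildtype arrays A to C alone and no pairing (limma adjusted p = 0.058). Without the double-labelled array B the change of GstE10 was -0.23 (limma adjusted p = 0.0645). GstE6, at 11.93, 11.90 and 12.03, overlapped with the wildtype range of 11.96 to 12.22 and was not called (adjusted p = 0.463). GstE4, at 7.62, 7.24 and 7.05, was not called either (adjusted p = 0.445). GstE1 and GstE5 differed from wildtype by -3.25 and -4.38, or 9.52-fold and 20.8-fold less signal. These comparisons and those below use the same wildtype arrays.

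The mean of both HP1a genotypes was compared with wildtype because, with 3 arrays each, its error is uncorrelated with that of the difference that chose the cluster. Its size still includes the arrays labelled HP1a Pof, so GstE1 and GstE5 are left out of the counts. Of the other 7 members, 6 were called lower and GstE4 was not called (change -0.04, limma adjusted p = 0.786), where 39.1% of all tested genes were called lower and 28.1% higher. The arrays of 5 of these members lay below wildtype without overlap, beside 31.0% of all genes. The median over the 7 was -0.68, beside -0.06 over all genes. GstE9 and GstE7 were lower by 3.53-fold and 2.38-fold in the mean.

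In Su(var)3-9 mutants all 9 members were called lower than wildtype, and the arrays of each were all below the wildtype range. The background was 47.6% of tested genes called lower and 16.3% higher, and 42.8% with lower arrays without overlap. The members' changes ran from -1.35 to -0.65, with a median of -0.99 beside -0.22 over all genes. GstE5 had the largest change, -1.35 ± 0.13 (SE, limma adjusted p = 2.83e-07), and GstE4 and GstE1 followed with -1.15 ± 0.15 and -1.12 ± 0.10 (SE, limma adjusted p = 7.74e-06 and 1.61e-07). GstE4 reached 6.12, 6.03 and 5.89 in these mutants, below all arrays of the other 4 groups. GstE9 fell to 11.31, 11.60 and 11.55, a change of -1.12 ± 0.11 (SE, limma adjusted p = 4.01e-07), and kept the highest signal of the 4 mutant groups. GstE3, GstE2, GstE6, GstE7 and GstE10 changed by -0.99, -0.98, -0.72, -0.68 and -0.65, with adjusted p between 1.81e-06 and 0.000178 (limma). Su(var)3-9 mutants had the lowest group mean of GstE10, GstE2, GstE4 and GstE6, but only for GstE4 were they separate from every other group. For GstE10 their arrays overlapped with HP1a mutants and the arrays labelled HP1a Pof, for GstE2 with the arrays labelled HP1a Pof and Setdb1 mutants, and for GstE6 with HP1a and Setdb1 mutants.

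Setdb1 mutants differed more between members. A total of 6 of the 9 members were called lower than wildtype and 0 higher, where the background was 35.2% lower and 17.3% higher. The arrays of 5 members lay below wildtype without overlap, beside 33.8% of all genes. The median over members was -0.50 beside -0.11 over all genes. GstE9 fell to 10.65, 10.26 and 10.05, a change of -2.29 ± 0.11 or 4.88-fold less signal (SE, limma adjusted p = 1.69e-10). GstE3 fell to 11.55, 10.95 and 10.85, a change of -1.60 ± 0.15 or 3.04-fold less signal (SE, limma adjusted p = 4.49e-07). In both, array A was the highest of the 3 Setdb1 arrays, and all 3 lay below wildtype. GstE7, GstE2 and GstE6 changed by -0.71, -0.60 and -0.50 (limma adjusted p = 1.68e-05, 0.000303 and 0.00427).

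GstE10 had a small change of -0.27 in Setdb1 mutants (limma adjusted p = 0.026), and its arrays, at 10.02, 9.59 and 9.62, overlapped with wildtype. The call did not hold paired by letter, which leaves out wildtype arrays D to F (-0.23, limma adjusted p = 0.13), with wildtype arrays A to C alone and no pairing (-0.23, limma adjusted p = 0.14), without Setdb1 array B (limma adjusted p = 0.146) or without array C (limma adjusted p = 0.135). With each array centred on its median it was -0.16 (limma adjusted p = 0.189). GstE5 had the same size of change, -0.27, and was not called (limma adjusted p = 0.086). Without Setdb1 array A it was -0.39 and was called (limma adjusted p = 0.0326), and without array A of those labelled HP1a Pof it was also called (limma adjusted p = 0.0388). GstE1, at -0.05 (limma adjusted p = 0.676), and GstE4, at -0.04 (limma adjusted p = 0.846), were not called and overlapped with wildtype. With centred arrays GstE1 and GstE4 were at 0.06 and 0.07 and GstE5 at -0.16, and none of them was called.

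**Figure D4:**
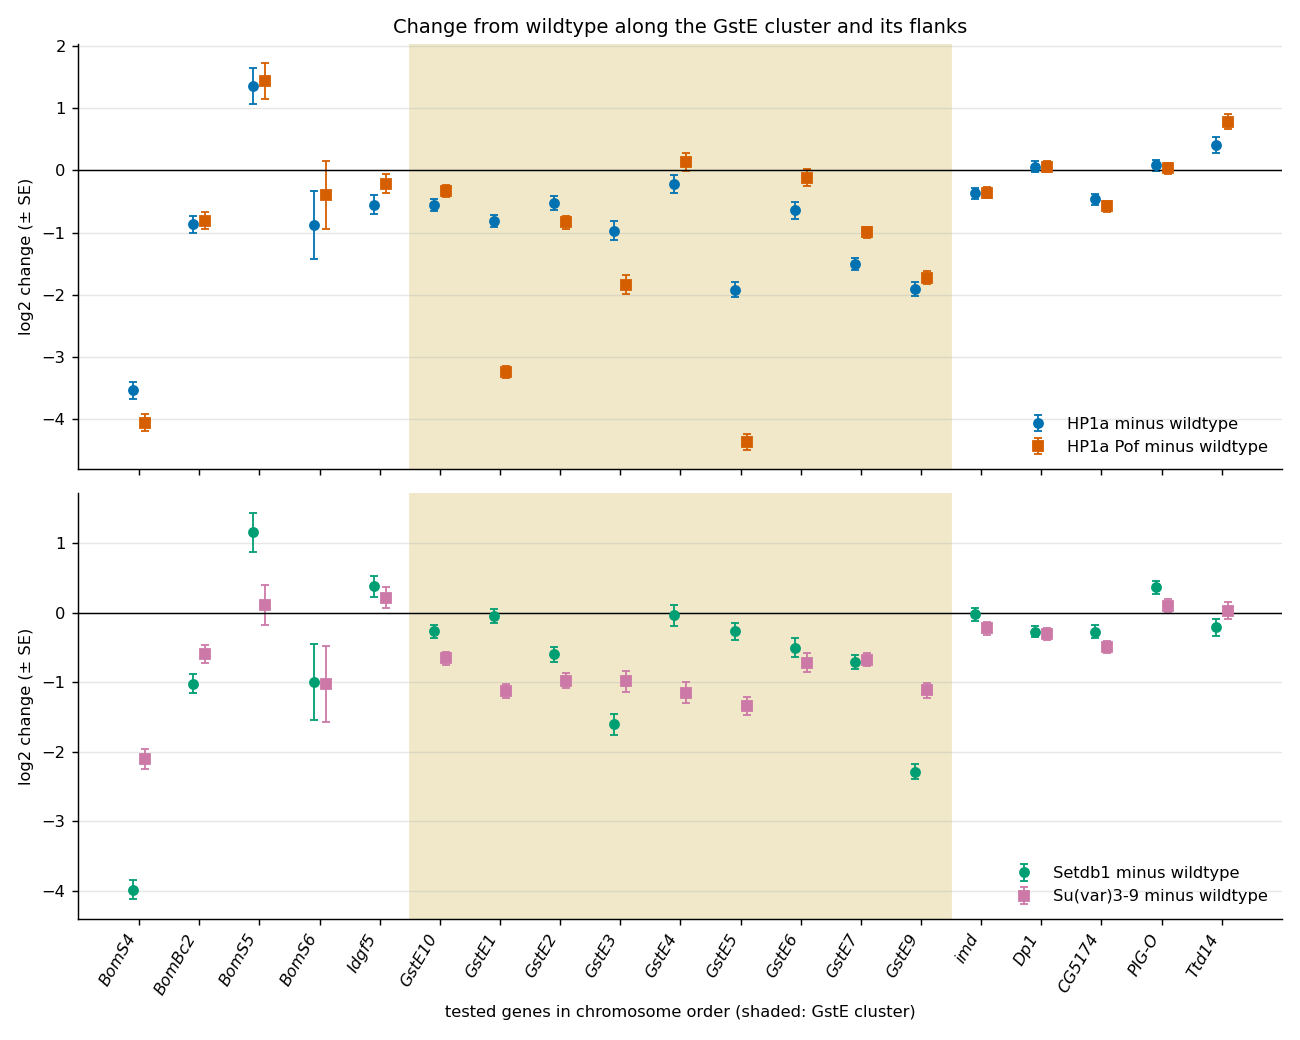
Log2 change from wildtype (points, with the standard error as bars) of the tested GstE genes (shaded) and the 5 nearest tested genes on each side, in chromosome order, for the HP1a genotypes (top) and for Setdb1 and Su(var)3-9 mutants (bottom). Su(var)3-9 changes of the cluster lie between -1.35 and -0.65, while Setdb1 changes range from -2.29 for GstE9 to -0.04 for GstE4.

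Tested directly, Setdb1 and Su(var)3-9 mutants differed in 7 of the 9 members. A total of 5 were called higher in Setdb1 mutants and 2 lower, where 19.0% of all tested genes were called higher and 8.48% lower. The arrays of 4 members were higher and of 2 lower without overlap, beside 22.9% and 9.34% of all genes. GstE4, GstE5 and GstE1 were higher by 1.11 ± 0.17, 1.08 ± 0.15 and 1.07 ± 0.12 (SE, limma adjusted p = 0.00025, 6.76e-05 and 6.51e-06), and their arrays did not overlap. GstE9 was lower in Setdb1 mutants, with a difference of -1.17 ± 0.13 (SE, limma adjusted p = 6.52e-06). GstE6 and GstE7 were not called, with differences of 0.22 ± 0.15 and -0.03 ± 0.11 (SE, limma adjusted p = 0.298 and 0.862).

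The other 3 calls between Setdb1 and Su(var)3-9 mutants were lost without certain single arrays, and also under settings that kept every array of these groups. GstE3 had a difference of -0.62 (limma adjusted p = 0.0162), which became -0.54, -0.48 and -0.53 without Setdb1 array B, Setdb1 array C or Su(var)3-9 array B (limma adjusted p = 0.0639, 0.0671 and 0.0632). GstE10 had 0.39 (limma adjusted p = 0.0167), and 0.25 and 0.33 without Setdb1 array A or Su(var)3-9 array A (limma adjusted p = 0.0854 and 0.0501). GstE2 had 0.38 (limma adjusted p = 0.0381), and lost the call without Setdb1 array A or B or Su(var)3-9 array A or C (limma adjusted p = 0.163, 0.0673, 0.053 and 0.19). When only these groups were fitted, GstE3, GstE10 and GstE2 were not called (limma adjusted p = 0.11, 0.169 and 0.215). With centred arrays GstE10 and GstE2 were at 0.274 and 0.265 and not called (limma adjusted p = 0.092 and 0.0983). Array weights also removed the calls of GstE10 and GstE2 (limma adjusted p = 0.0948 and 0.275).

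Whether neighbouring genes changed unequally was tested on the difference between adjacent probe sets within each array, over all 8188 adjacent pairs of tested genes. In Su(var)3-9 mutants against wildtype, 3 of the 8 pairs within the cluster were called unequal, where 58.8% of all pairs were. The median absolute difference was 0.18 in the cluster and 0.455 over all pairs. GstE3 and GstE4, for example, differed in their change by -0.16 ± 0.16 (SE, limma adjusted p = 0.393). In Setdb1 mutants, 4 of 8 pairs were called, beside 54.6% of all pairs. GstE4 changed less than GstE3 by 1.57 ± 0.16 (SE, limma adjusted p = 7.59e-07), and GstE9 fell further than GstE7 by 1.58 ± 0.12 in size (SE, limma adjusted p = 2.68e-08).

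Between Setdb1 and Su(var)3-9 mutants, 6 of 8 pairs were called unequal, beside 26.8% of all pairs, with a median absolute difference of 0.776 in the cluster and 0.288 over all pairs. The largest step lay between GstE3 and GstE4, at 1.73 ± 0.18 (SE, limma adjusted p = 3.98e-06). GstE4 and GstE5 showed no detectable step, at -0.03 ± 0.19 (SE, limma adjusted p = 0.916). Against wildtype, 4 of the 4 pairs without GstE1 or GstE5 were called unequal in HP1a mutants, beside 62.1% of all pairs, and 4 of 4 in the arrays labelled HP1a Pof, beside 64.7%. With both HP1a genotypes averaged, the same 4 pairs were called, beside 70.4% of all pairs.

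Of the 10 flanking genes, 5 were lower and 0 higher than wildtype in Su(var)3-9 mutants, beside 47.6% and 16.3% of all tested genes. In Setdb1 mutants 4 were lower and 3 higher, beside 35.2% and 17.3%. In HP1a mutants 5 were lower and 2 higher, beside 35.6% and 23.5%, and in the arrays labelled HP1a Pof 4 and 2, beside 35.8% and 25.0%. The shares called lower were thus near those of all genes, with a larger gap in HP1a mutants. On the side of GstE9, imd had changes of -0.02 in Setdb1 and -0.37 in HP1a mutants (limma adjusted p = 0.869 and 0.00293), and the former was not called. The step from GstE9 to imd measured 2.27 ± 0.14 in Setdb1 and 1.54 ± 0.14 in HP1a mutants (SE, limma adjusted p = 2.1e-09 and 1.25e-07). On the side of GstE10, Idgf5 and GstE10 changed by the same -0.55 in HP1a mutants, with no detectable step between them (limma adjusted p = 0.992). The Toll-responsive gene BomS4, 5 tested genes before the cluster, changed by -3.99 in Setdb1, -2.11 in Su(var)3-9 and -3.54 in HP1a mutants (limma adjusted p = 2.63e-12, 7.53e-09 and 1.9e-11), while BomS5, 3 genes before it, changed by 1.15, 0.11 and 1.36 (limma adjusted p = 0.00292, 0.746 and 0.000658).

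GstE9 was the only member with more than 1 probe set. Its second probe set was dim, with a mean log2 signal of 5.82 ± 0.24 (SD, n = 6) in wildtype. It changed from wildtype by -1.42 in HP1a mutants, -1.56 in the arrays labelled HP1a Pof, -1.32 in Setdb1 and -1.24 in Su(var)3-9 mutants, all in the direction of the brighter probe set. The largest gap between the probe sets was in Setdb1 mutants, where the brighter one changed by -2.29.

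Over the 18 arrays, the tested gene most like GstE1 was GstE5 (Pearson r = 0.970), and the reverse held too. These correlations run over arrays of 5 groups that differ in mean, share the choice of the cluster and are given without a test. After GstE5, the genes most like GstE1 were Lapsyn (r = 0.963), which encodes a leucine-rich repeat membrane protein of synapses, galla-1 (r = 0.883), Rpi (r = 0.876), which encodes ribose-5-phosphate isomerase, and CG30411 (r = 0.873). All 4 lie on 2R outside the cluster. Lapsyn had group means of 8.81 in wildtype, 8.57 in Setdb1, 8.39 in HP1a, 8.17 in Su(var)3-9 and 6.83 in the arrays labelled HP1a Pof, the same order of groups as GstE1. For GstE5, the next genes were Lapsyn (r = 0.946), the zinc and iron transporter gene Zip99C on 3R (r = 0.927), the acetyl-CoA synthase gene AcCoAS on 3L (r = 0.927) and BckdhB on 2R (r = 0.924), which encodes a subunit of branched-chain ketoacid dehydrogenase. The other GstE members were less like either gene, with r between -0.05 for GstE4 and 0.69 for GstE3, both with GstE5.

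Other genes of glutathione detoxification were counted against the same backgrounds. Of 13 tested glutathione transferases outside the GstE and GstD clusters, 10 were lower and 1 higher than wildtype in both Setdb1 and Su(var)3-9 mutants, and 11 and 1 in HP1a mutants and in the arrays labelled HP1a Pof. Over all tested genes, 35.2% were lower and 17.3% higher in Setdb1 mutants, and 47.6% and 16.3% in Su(var)3-9 mutants. The shares were 35.6% and 23.5% in HP1a mutants, and 35.8% and 25.0% in the arrays labelled HP1a Pof. With centred arrays the lower count in Su(var)3-9 mutants was 6, where 2354 of all 8212 tested genes were lower. The theta-class gene GstT4 changed by -1.53 in Setdb1, -1.47 in Su(var)3-9 and -2.06 in HP1a mutants (limma adjusted p = 3.6e-06, 3.11e-06 and 8.79e-08). GstE13, an epsilon gene outside the cluster, changed by -1.10 in Su(var)3-9 and -0.92 in HP1a mutants (limma adjusted p = 1.15e-08 and 5.57e-08). GstS1, the sigma-class gene, was higher by 0.80 in Su(var)3-9 mutants (limma adjusted p = 1.34e-07).

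The delta-class GstD cluster, with 10 tested genes, had 4 lower and 2 higher in Setdb1 mutants, beside 35.2% and 17.3% of all genes, and 3 and 2 in Su(var)3-9 mutants, beside 47.6% and 16.3%. It had 4 and 2 in HP1a mutants, beside 35.6% and 23.5%, and 5 and 0 in the arrays labelled HP1a Pof, beside 35.8% and 25.0%. With centred arrays the higher count in Su(var)3-9 mutants was 5, where 2396 of all 8212 tested genes were higher. GstD2 was higher by 1.15 in Setdb1 and 0.84 in Su(var)3-9 mutants (limma adjusted p = 3.23e-07 and 4.83e-06), and GstD8 was lower by 1.59 in HP1a mutants (limma adjusted p = 1.28e-06). In the contrast of the arrays labelled HP1a Pof with HP1a mutants, 0 of the GstD genes and 0 of the other transferases were called, and the medians were -0.17 and -0.01. Only 0.731% of all tested genes were called in this contrast, so nothing is read from these counts of 0.

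Of 11 tested genes of glutathione synthesis and thiol redox, 8 were lower in Setdb1, 7 in Su(var)3-9 and 9 in HP1a mutants, with 0, 0 and 1 higher, and 8 were lower and 1 higher in the arrays labelled HP1a Pof. The shares of all tested genes lower and higher were 35.2% and 17.3% in Setdb1 and 47.6% and 16.3% in Su(var)3-9 mutants. They were 35.6% and 23.5% in HP1a mutants, and 35.8% and 25.0% in the arrays labelled HP1a Pof. Gclc, the catalytic subunit gene of the first enzyme of glutathione synthesis, changed by -0.89, -1.30 and -1.40 in Setdb1, Su(var)3-9 and HP1a mutants (limma adjusted p = 0.000204, 3.49e-06 and 1.59e-06). The peroxiredoxin gene Prx6c had changes of -5.75 in Setdb1 and -0.78 in HP1a mutants (limma adjusted p = 2.95e-12 and 0.00348). Of the 3 CncC regulators cnc, Keap1 and maf-S, 1 was lower in Setdb1 mutants and 2 in each of the other mutant groups, with 0 higher. With centred arrays the counts were 0 lower in Su(var)3-9 mutants, 1 lower in the arrays labelled HP1a Pof and 1 higher in Setdb1 mutants. With so few regulators, nothing is read from their counts beside the shares of all genes. cnc itself changed by -0.34, -0.39 and -0.32 in Setdb1, Su(var)3-9 and HP1a mutants (limma adjusted p = 0.00336, 0.000905 and 0.00475).

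The other steps of detoxification were read against the same shares called lower, 35.2% in Setdb1, 47.6% in Su(var)3-9 and 35.6% in HP1a mutants. Among 20 tested Cyp6 genes, which encode cytochrome P450 enzymes, 11 were lower and 2 higher in Setdb1, 12 and 3 in Su(var)3-9 and 15 and 2 in HP1a mutants. Cyp6a2 changed by -4.004 in Setdb1 mutants (limma adjusted p = 1.22e-13). Among 29 tested UDP-glycosyltransferase genes, 15 were lower and 5 higher in Setdb1, 20 and 4 in Su(var)3-9 and 21 and 2 in HP1a mutants. Among 6 tested ABC exporter genes, 3, 2 and 1 were lower in the same order and 0 higher, the latter 2 counts being smaller shares than over all genes, and Mdr50 changed by -1.30, -2.38 and -2.12 (limma adjusted p = 1.25e-05, 1.55e-08 and 4.35e-08). Between the arrays labelled HP1a Pof and HP1a mutants, 1 Cyp6 gene (Cyp6a8, 1.47 higher) and 2 UDP-glycosyltransferase genes, 1 in each direction, were called, and 0 of the redox, CncC and ABC exporter genes. The share of all tested genes called there was 0.731%, and nothing is read from the counts of 0. With centred arrays, 5 Cyp6 genes and 1 ABC exporter gene were higher in Su(var)3-9 mutants, where 2396 of all 8212 tested genes were higher.

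Tissue markers moved with the mutant groups as well. The mean log2 signal of 8 midgut markers ran from 10.06 to 10.30 over the wildtype arrays, and from 9.00 to 9.18 in HP1a mutants, 8.76 to 9.22 in the arrays labelled HP1a Pof, 8.94 to 9.78 in Setdb1 and 8.98 to 9.41 in Su(var)3-9 mutants. Of the 7 tested, 5, 5, 4 and 5 were called lower in these groups and 2, 2, 2 and 1 higher. Over all tested genes, 35.6%, 35.8%, 35.2% and 47.6% were called lower in the same order, and 23.5%, 25.0%, 17.3% and 16.3% higher. The mean of 7 markers of cuticle and tracheal epidermis ran from 7.50 to 8.05 in wildtype and from 9.47 to 10.92 over the mutant arrays. Malpighian tubule markers ran from 7.27 to 7.45 in wildtype and from 7.001 to 7.458 over the mutant arrays. Fat body markers ran from 9.80 to 9.91 in wildtype, and from 9.80 to 10.02 over the HP1a, HP1a Pof-labelled and Setdb1 arrays. In Su(var)3-9 mutants alone, fat body markers ran from 9.87 to 10.94, with a group mean of 10.26. With 3 arrays, this mean places only the highest array far above the other groups. Of the 4 tested fat body markers, 2 were called higher and 0 lower in Su(var)3-9 mutants. Their median change was 0.105, beside -0.221 over all tested genes. Haemocyte markers ran from 8.92 to 9.13 in wildtype and from 8.69 to 8.98 over the mutant arrays. Neuron markers ran from 7.27 to 7.49 in wildtype, from 7.69 to 8.12 in HP1a mutants and from 7.995 to 8.289 in the arrays labelled HP1a Pof, and from 7.10 to 7.80 in Setdb1 and Su(var)3-9 mutants. These list means hide members that moved in opposite directions. In Setdb1 mutants, 2 of 6 tested neuron markers were called higher and 2 lower. The counts there were 2 and 2 of 5 Malpighian tubule markers, and 2 and 3 of 5 haemocyte markers. In HP1a mutants they were 3 and 1, 1 and 1, and 2 and 3 in the same order of lists. The part of these markers in the changes of the GstE genes was not tested. In such bulk samples, fewer cells of a type and less RNA per cell cannot be told apart. Between the arrays labelled HP1a Pof and HP1a mutants, 0 of the 7 midgut markers were called, with a median difference of -0.04. As 0.731% of all tested genes were called there, nothing is read from this count of 0.

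Over all tested genes, more were lower than higher in each comparison with wildtype, and centring each array on its median evened the split. It shifted the changes of Setdb1 mutants by 0.111, those of Su(var)3-9 mutants by 0.223 and the difference of the former from the latter by -0.112. For Su(var)3-9 mutants the calls were 1337 higher and 3911 lower as deposited, and 2396 and 2354 centred. For Setdb1 mutants they were 1419 and 2890, and 2107 and 2173 centred. For HP1a mutants they were 1929 and 2926, and 2461 and 2575 centred, and for the arrays labelled HP1a Pof 2055 and 2937, and 2636 and 2566 centred. For the mean of both HP1a genotypes they were 2304 and 3209, and 2888 and 2818 centred. Between Setdb1 and Su(var)3-9 mutants they were 1558 higher and 696 lower, and 861 and 1051 centred. The centred members' changes ran from -1.12 to -0.43 in Su(var)3-9 mutants, with all 9 still called lower, and 5 of 9 were called lower in Setdb1 mutants.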

How the data were processed

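The deposited values are log2 signals of 18952 probe sets on 18 one-colour Affymetrix arrays, made with RMA per the submitters' processing notes. Neither a genome build nor the version and settings of RMA could be read from these sources. The members and gene lists were chosen with earlier results of these data known. With the annotation table supplied for the arrays, 13647 probe sets named 1 gene, 402 several, 4720 none and 183 were controls, and 13544 were matched in the RefSeq table of Release 6, which was used for names and gene order. Of 11983 genes, 1094 had several probe sets. Genes entered the tests when a log2 value of 6 was reached on 3 or more arrays.

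Group means were fitted for all 5 groups together with lmFit and eBayes of limma 3.58.1 (R 4.3.3), which left 13 residual degrees of freedom. P-values were adjusted by Benjamini-Hochberg over all tested genes (or all adjacent pairs), and an adjusted p under 0.05 was a call. Adjacent genes were compared by the same fit on their within-array difference. The procedure was tested on simulated data. The genes named were all GstE members, the 5 nearest tested genes on each side, the 5 tested genes with the highest correlation with GstE1 or GstE5, and at most 4 called members of each list with the largest changes. The lists were GstD genes, other glutathione transferases, glutathione synthesis and thiol redox, CncC regulators, ABC exporters, Cyp6 genes, UDP-glycosyltransferases and markers of midgut, fat body, Malpighian tubule, haemocytes, neurons and cuticle and tracheal epidermis. Among flanking genes, BomS4 and BomS5 were picked for the text after their values were seen.

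Whether replicate letters pair arrays was checked from the correlation of same-letter deviations from group means. The lowest value was 0.198 for Setdb1, 0.204 for HP1a and 0.133 for the arrays labelled HP1a Pof against wildtype, and 0.423 between the arrays labelled HP1a Pof and HP1a mutants, so these were taken as paired in an alternative. For Su(var)3-9 against wildtype and Setdb1 against Su(var)3-9 it was 0.0286 and -0.00901, so the letters were not taken to pair these. The alternative with the letters as a replicate block was still fitted to all 5 groups together, so it covered these comparisons too. No 2 arrays held identical values. Alternatives changed the filter, the centring, the probe set rule, the groups fitted, the array weights, the pairing and the arrays left out. Sequences are not printed, and GstE8 was not analysed here for want of a probe set naming it.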

Additional observations from a re-analysis of the deposited data

How the results depend on the processing

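The 48 tested log2 changes of members (without GstE1 and GstE5 in the HP1a comparisons) were recomputed under 26 alternative settings, which gave 1236 values. Of these, 1206 stayed on their side of the threshold, 25 fell short of it, 5 newly passed it and 0 called changes reversed. Changes that were not called could change sign and still count as kept. With centred arrays this held for GstE1 and GstE4 in Setdb1 mutants, at 0.058 and 0.073. Many settings could not move the change itself, such as another filter or leaving out an array of a group outside the comparison. The same held for averaging probe sets in members other than GstE9. Only the error and the adjustment could differ there, so the count kept overstates how far the results were tried. The filter at log2 8 removed GstE2 and GstE4. Between Setdb1 and Su(var)3-9 mutants, the 5 members called higher became 3 with the filter at log2 8, with centred arrays, with only the groups compared and with array weights, and between 3 and 5 when 1 array was left out. The 2 called lower became 1 with only the groups compared and between 1 and 2 when 1 array was left out. With the replicate block, which leaves out wildtype arrays D to F, the changes of GstE10 in Setdb1 mutants (-0.23, limma adjusted p = 0.13) and in the arrays labelled HP1a Pof (-0.29, limma adjusted p = 0.0548) were not called, GstE4 in HP1a mutants was called (-0.27, limma adjusted p = 0.0313), and no other call among the 48 changed. Without the pairing, wildtype arrays A to C alone gave the same changes of GstE10 (limma adjusted p = 0.14 and 0.058). GstE4 in HP1a mutants was also called with array weights (limma adjusted p = 0.0305), and GstE5 in Setdb1 mutants with only the groups compared (limma adjusted p = 0.0236). The causes of these moves were not tested. RMA signals carry no detection call here, so dim values, such as those of GstE5 in the arrays labelled HP1a Pof, limit the precision of large fold changes.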
